A study of Mus musculus with 8 samples.

Results

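Cathepsins are proteases that mature and work mostly in the acid lumen of lysosomes, and 10 of their genes (Ctsa, Ctsb, Ctsc, Ctsd, Ctse, Ctsf, Ctsh, Ctsl, Ctss and Ctsz) are described here in mouse microglia. They were taken by symbol from the 55421 genes of a deposited read-count table, and all 10 were among the 22089 genes with enough counts to be tested. Microglia, the resident macrophages of the brain, had been isolated from 6-month-old C57BL/6 mice and sequenced as bulk RNA. The 4 groups held 2 libraries each: Calhm2 conditional knockout mice with Alzheimer's disease (cKO/AD), wild-type mice with Alzheimer's disease (WT/AD), Calhm2 conditional knockout mice without it (cKO) and wild-type mice without it (WT). Calhm2 belongs to the calcium homeostasis modulators, a family of membrane channels. The labels name neither the disease model and its transgenes nor the driver of the deletion, and do not say whether replicate libraries are from different animals. The p-values therefore set a difference between groups only against the spread between these libraries, which may in part be technical. That spread was estimated over all 4 groups together.

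Cathepsins are grouped by the residue that cuts the peptide bond. Of the 10, 7 are cysteine proteases (Ctsb, Ctsc, Ctsf, Ctsh, Ctsl, Ctss, Ctsz), 2 are aspartic proteases (Ctsd, Ctse) and 1 is a serine carboxypeptidase (Ctsa). Most are made as inactive proenzymes, carried to lysosomes by mannose 6-phosphate receptors and sortilin-like receptors, and activated there by removal of the propeptide. Cystatins bind and block the cysteine members. In macrophages these enzymes break down engulfed proteins and trim antigens. Inherited loss of human CTSD or CTSF causes neuronal ceroid lipofuscinosis, a lysosomal storage disease of the brain.

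The libraries held 18218165 to 25774587 counts. Calhm2 had 2.50 and 1.56 CPM (counts scaled to a common library size) in cKO/AD and 16.4 and 13.7 in WT/AD (log2 fold change -2.89, adjusted p = 0.01). It had 4.76 and 4.70 in cKO and 10.3 and 12 in WT (log2 fold change -1.24, adjusted p = 0.673). The cKO/AD libraries stood apart. They held counts for 18693 and 22088 genes, against 24342 to 25988 genes in the other 6 libraries, and their replicate correlation of log2 CPM over genes was 0.843, against 0.93 to 0.945. Mitochondrial genes took 4.73% and 2.36% of their counts, against 1.37% to 2.30% in the other 6 libraries, and the part of this in the cathepsin values was not tested. Every microglial marker of the list used was detected. Their summed level was 11445 and 15624 CPM in cKO/AD, 23151 and 24297 in WT/AD, 17733 and 20844 in cKO, and 30124 and 33249 in WT. The sum of oligodendrocyte markers ran the other way, with 9692 and 7842 CPM in cKO/AD, 4992 and 5555 in WT/AD, 6272 and 5890.2 in cKO, and 4820 and 4309 in WT, although 3 of the 6 fell and 1 rose in cKO/AD relative to WT/AD. Over all tested genes 10.2% fell and 7.82% rose in cKO/AD relative to WT/AD. In such bulk libraries, fewer cells of a type and less RNA per cell cannot be told apart.

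The cathepsins that passed the test between cKO/AD and WT/AD were Ctsd, Ctsf and Ctsl, and the stretch before the start of each is shown because the E-box CACGTG, the core of the site bound by the lysosomal gene regulators Tfeb, Tfe3 and Mitf, lies in all of them. The sequences are the 250 bases before the start in RefSeq (GRCm38.p6), 5′ to 3′ on the strand of the gene, with CACGTG or its palindromic extension TCACGTGA in capitals.
Ctsd, chr7:142387828-142388077, minus strand: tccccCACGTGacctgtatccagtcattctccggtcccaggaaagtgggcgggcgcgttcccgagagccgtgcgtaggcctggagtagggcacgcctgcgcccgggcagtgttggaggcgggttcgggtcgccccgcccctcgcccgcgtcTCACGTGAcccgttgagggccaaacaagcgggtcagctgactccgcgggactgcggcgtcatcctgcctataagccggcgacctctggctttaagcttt
Ctsf, chr19:4854915-4855164, plus strand: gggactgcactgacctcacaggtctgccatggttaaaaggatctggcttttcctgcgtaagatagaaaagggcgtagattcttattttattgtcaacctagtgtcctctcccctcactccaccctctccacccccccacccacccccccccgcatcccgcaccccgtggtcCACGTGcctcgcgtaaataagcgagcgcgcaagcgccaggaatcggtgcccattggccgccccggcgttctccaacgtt
Ctsl, chr13:64370521-64370770, minus strand: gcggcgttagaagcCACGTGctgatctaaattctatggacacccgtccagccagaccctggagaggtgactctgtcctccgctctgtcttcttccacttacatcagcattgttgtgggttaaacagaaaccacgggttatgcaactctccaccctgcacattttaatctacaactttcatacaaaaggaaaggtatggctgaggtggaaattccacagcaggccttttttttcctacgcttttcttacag
The Ctsl window lies inside the outer bounds RefSeq gives for that gene, before the start of a shorter transcript. RefSeq windows were at hand for 7 of the 10 cathepsins, all but Ctsb, Ctse and Ctsh. CACGTG was found in 4 of the 7 (Ctsa, Ctsd, Ctsf and Ctsl), and in 6.86% of 27025 genes with windows of this length. A gene was counted if any of its windows matched. Ctsa, which passed no test, matched in the window chr2:164833523-164833772 and not in chr2:164832622-164832871. The longer TCACGTGA, which contains it, was found in Ctsa and Ctsd, and in 0.907% of genes. GAGGAAGT, a form of the site of the macrophage factor Spi1, was searched on both strands and found in the Ctsc window alone among the 7, and in 2.79% of genes. TATAAA, also searched on both strands, was found in the Ctss window alone, and in 14.3% of genes. These are matches of letters, and binding was not measured.

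Ctss led the family per kilobase of exon, but not by mean CPM. Mean CPM of Ctsb and Ctss was 3609 and 3393 in cKO/AD and 4831 and 3021 in WT/AD. It was 2346 and 2154 in cKO, and 3171 and 2873 in WT. Only in cKO/AD replicate 1 was Ctss above Ctsb by CPM. Length was that of all annotated exons of a gene together, 1.358 kb for Ctss and 6.051 kb for Ctsb. Per kilobase of exon, Ctss made up 66.3% and 58.7% of the summed cathepsin level in cKO/AD, 50.8% and 52.3% in WT/AD, 61.8% and 57.7% in cKO, and 59.8% and 60.0% in WT. Ctss encodes an endopeptidase of antigen-presenting cells that cuts the invariant chain and stays active at neutral pH. The WT/AD shares were the lowest of the 4 groups. Ctsb followed at 12.4% to 18.8% over the 8 libraries, Ctsz at 7.07% to 10.8% and Ctsc at 4.20% to 7.42%. These 4 led by mean per-length level in every group, and Ctsh and Ctse came last in every group. Between them the order differed: Ctsa, Ctsl, Ctsf and Ctsd in cKO/AD, Ctsd, Ctsl, Ctsf and Ctsa in WT/AD, Ctsf, Ctsl, Ctsd and Ctsa in cKO, and Ctsf, Ctsl, Ctsa and Ctsd in WT. Ctsd, a major lysosomal protease, took 1.14% and 1.38% in cKO/AD, 5.46% and 3.59% in WT/AD, 1.83% and 2.43% in cKO, and 1.96% and 1.94% in WT. Its per-length level is uncertain: 808 of its exon bases are shared on the same strand with a predicted gene that had 0 counts in every library, and how reads there were assigned is not given in the sources used here. Ctsl likewise shares 395 bases with a pseudogene on its own strand and 1742 with an antisense gene, both at 0 counts throughout. Together the 10 genes took 0.840% and 1.11% of all counts in cKO/AD, 1.20% and 1.27% in WT/AD, 0.802% and 0.799% in cKO, and 0.947% and 0.966% in WT.

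**Figure D1:**
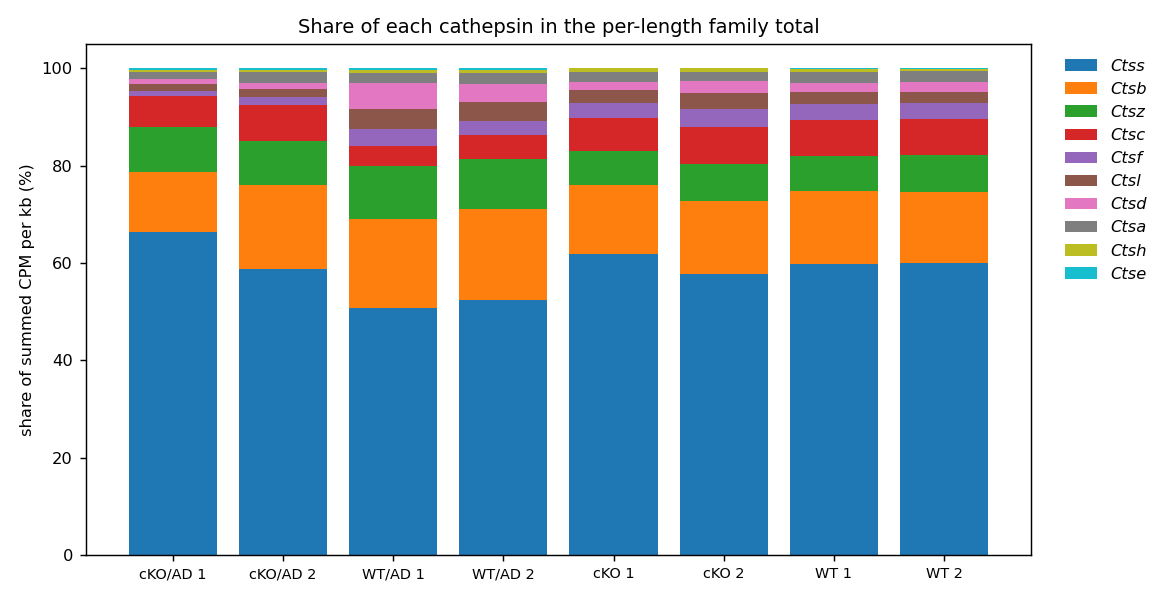
Stacked bars give, for each of the 8 libraries, the percent of the summed per-length cathepsin level (CPM per kb) that each gene contributed. Ctss fills 50.8% to 66.3% of every bar, and the Ctsd, Ctsf and Ctsl segments are thinner in the cKO/AD bars than in the WT/AD bars.

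Ctsd encodes the main aspartic endopeptidase of lysosomes. It had 107 and 130.1 CPM in cKO/AD, 538 and 375 in WT/AD, 116 and 149 in cKO, and 159 and 165 in WT. Both WT/AD libraries were above all others, with a wide gap between them, and the cKO/AD and cKO libraries overlapped. The level was lower in cKO/AD than in WT/AD by edgeR's quasi-likelihood test with Benjamini-Hochberg adjustment over all tested genes (log2 fold change -1.95, SE 0.244, adjusted p = 0.00642). WT/AD was above WT by 1.50 on the log2 scale (SE 0.241), which did not pass (adjusted p = 0.151). The cKO/AD and cKO libraries differed by -0.16 (SE 0.236, adjusted p = 0.728), and cKO and WT by -0.29 (SE 0.236, adjusted p = 0.873).

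Ctse encodes an aspartic protease of endosomes and other compartments outside the lysosome. It had 38.4 and 43.7 CPM in cKO/AD, 44.2 and 47.3 in WT/AD, 3.07 and 1.80 in cKO, and 4.47 and 5.54 in WT. All 4 libraries from mice with the disease were far above the other 4. Even the lowest, in cKO, rested on 62 and 41 counts. The gene rose 16.9-fold in cKO/AD relative to cKO (log2 fold change 4.08, SE 0.372, adjusted p = 0.015) and 9.14-fold in WT/AD relative to WT (3.19, SE 0.355, adjusted p = 0.0437). cKO/AD lay just below WT/AD without overlap, a difference of -0.16 (SE 0.323) that did not pass (adjusted p = 0.774). Ctse remained the lowest of the 10 per kilobase, at 0.305% and 0.342% of the family in cKO/AD and 0.333% and 0.336% in WT/AD, against 0.0359% and 0.0218% in cKO and 0.0408% and 0.0484% in WT.

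Ctsl encodes a cysteine endopeptidase of lysosomes. It had 375 and 416 CPM in cKO/AD, 1107 and 1109 in WT/AD, 456 and 565 in cKO, and 540.0 and 543 in WT. The WT/AD libraries were alike and far above every other, while cKO and WT overlapped. The level fell in cKO/AD relative to WT/AD (log2 fold change -1.49, SE 0.184, adjusted p = 0.00642). WT/AD exceeded WT by 1.03 (SE 0.182), which did not pass (adjusted p = 0.198), and cKO/AD lay below cKO by a log2 difference of -0.37 (SE 0.18, adjusted p = 0.26).

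Ctsf encodes a cysteine protease with an unusually long propeptide. It had 179 and 329 CPM in cKO/AD, 716 and 667 in WT/AD, 414 and 488 in cKO, and 570.1 and 611 in WT. No 2 groups overlapped, and the cKO/AD libraries were the lowest and the farthest apart. The level was lower in cKO/AD than in WT/AD (log2 fold change -1.44, SE 0.284, adjusted p = 0.0145). The difference of cKO/AD from cKO was -0.83 (SE 0.281, adjusted p = 0.136), and that of WT/AD from WT was 0.23 (SE 0.279, adjusted p = 0.922).

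Ctsb, a cysteine protease that also removes dipeptides from the C terminus, was highest in WT/AD. It had 2995 and 4223 CPM in cKO/AD, 4623 and 5039.7 in WT/AD, 2326 and 2366 in cKO, and 3144 and 3198 in WT. No other library reached the WT/AD level, cKO was lowest, and the cKO/AD libraries spanned the WT level. Its log2 difference was 0.62 (SE 0.211, adjusted p = 0.136) for cKO/AD over cKO and 0.61 (SE 0.211, adjusted p = 0.466) for WT/AD over WT.

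Ctsz, a carboxypeptidase that removes single residues, separated the groups in the same order as Ctse. It had 529.6 and 529.0 CPM in cKO/AD, 654 and 658 in WT/AD, 275 and 289 in cKO, and 356 and 395 in WT. No groups overlapped. The difference of cKO/AD from cKO was 0.91 (SE 0.165, adjusted p = 0.0556) and that of WT/AD from WT was 0.80 (SE 0.164, adjusted p = 0.262), and neither passed.

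Ctss had 3580.1 and 3206 CPM in cKO/AD, 2887 and 3155 in WT/AD, 2262 and 2045 in cKO, and 2803 and 2943 in WT. It was highest in cKO/AD and lowest in cKO, and WT/AD overlapped WT. The largest of its differences, 0.66 for cKO/AD over cKO (SE 0.179), did not pass (adjusted p = 0.0874).

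Ctsc encodes dipeptidyl peptidase I, which activates the granule proteases of immune cells. It had 1479 and 1709 CPM in cKO/AD, 1020.1 and 1264 in WT/AD, 1053 and 1124 in cKO, and 1468 and 1529 in WT. By library, cKO/AD overlapped WT and WT/AD overlapped cKO. It was the only member below WT in both WT/AD libraries, and above WT/AD by the widest margin in cKO/AD. These differences were -0.39 (SE 0.189, adjusted p = 0.592) for WT/AD against WT and 0.48 (SE 0.189, adjusted p = 0.117) for cKO/AD against WT/AD.

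The remaining members, the aminopeptidase gene Ctsh and the serine carboxypeptidase gene Ctsa, passed no test. Ctsh had 97.0 and 87.0 CPM in cKO/AD, 108 and 108 in WT/AD, 75.3 and 75.3 in cKO, and 107 and 95.8 in WT. Ctsa had 248 and 406 CPM in cKO/AD, 410.5 and 507 in WT/AD, 262 and 248 in cKO, and 369 and 380.5 in WT. For both, WT overlapped cKO/AD in the middle of the order, with WT/AD above and cKO below, and for Ctsa cKO/AD overlapped cKO as well. Ctsa, whose protein shields the sialidase Neu1 in a lysosomal complex, shares 495 exon bases with Pltp and 324 with Neurl2 on the opposite strand. Those genes had summed counts of 7937 and 437, against 62857 for Ctsa, and the strand setting of the counting is not given in the sources used here.

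**Figure D2:**
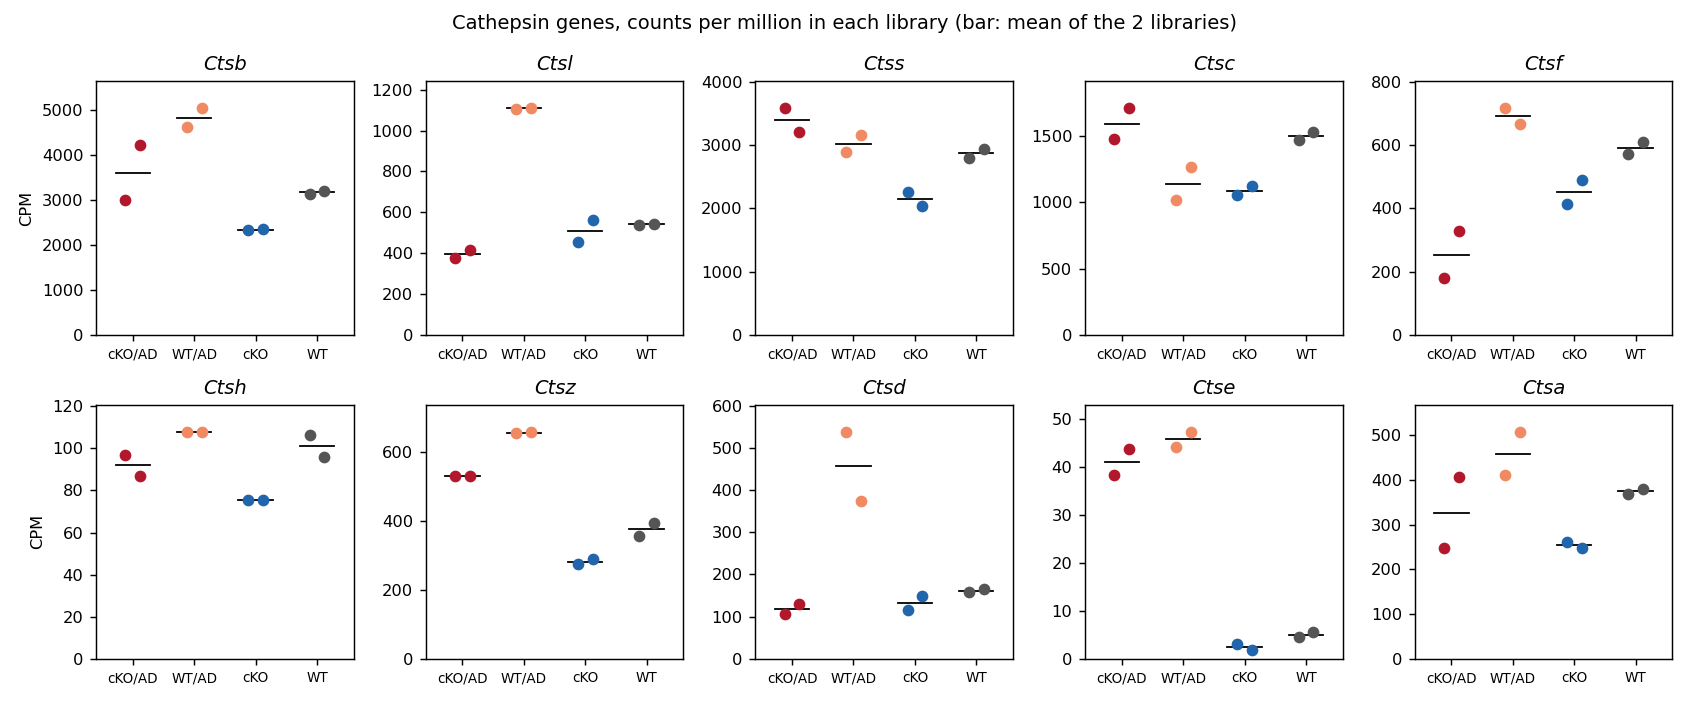
Each panel gives 1 gene, with CPM on the y axis from 0, a point for each library and a bar at the mean of the 2 libraries of a group. Ctsd and Ctsl are high in WT/AD alone, Ctse is at 38.4 CPM or more in both disease groups and at 5.54 CPM or less in the others, and Ctss and Ctsc are highest in cKO/AD.

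The first comparison asked what deletion of Calhm2 did in mice with the disease. Relative to WT/AD, 3 cathepsins fell in cKO/AD (Ctsd, Ctsl and Ctsf) and none rose by edgeR. Over all tested genes 10.2% fell and 7.82% rose. DESeq2 and limma-voom each called 4 members, where they called 28.9% and 21.8% of all genes. The fourth was Ctsc, higher in cKO/AD (log2 fold change 0.53, adjusted p = 0.0145 by DESeq2, and 0.49, adjusted p = 0.0482 by limma-voom). It also passed in edgeR without cKO/AD replicate 1 (0.61, adjusted p = 0.0126) and with the stricter filter on low counts (0.56, adjusted p = 0.0447), but with a correction for transcript GC content it turned to -0.15 (adjusted p = 0.627). Both cKO/AD libraries were below both WT/AD libraries for 8 of the 10 members, as for 35.1% of all genes, and above them for the other 2, Ctsc and Ctss, as for 24.3%. The median log2 fold change was -0.36 over the members and -0.14 over all tested genes. The 5 other members that lay lower, Ctsa, Ctsb, Ctse, Ctsh and Ctsz, differed by -0.49 to -0.16. All 3 calls were lost when WT/AD replicate 1 was left out (adjusted p = 0.054 for Ctsd, 0.0545 for Ctsl and 0.0901 for Ctsf) and when the fit held these 4 libraries alone (0.0901, 0.0901 and 0.117). Without that replicate 2 genes of the whole table were called, and in the fit of the 4 libraries edgeR called 0, with 5245 at an unadjusted p under 0.05. The Ctsf call was also lost without WT/AD replicate 2 (adjusted p = 0.0549). Without cKO/AD replicate 2, 5 members were called, the further ones being Ctsa (-0.90) and Ctsb (-0.70), both lower. In that fit 41.1% of all genes were called.

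The libraries of the 2 groups differed along transcript GC content, which was 43.4% for Ctsc, 45.9% for Ctss, 46.3% for Ctsl, 50.2% for Ctse, 50.5% for Ctsh, 51.1% for Ctsb, 55.1% for Ctsf and Ctsd, 56.1% for Ctsa and 57.3% for Ctsz. Among genes with a mean of at least 4 CPM, the median log2 fold change of cKO/AD over WT/AD was 0.81 for 3495 genes under 45% GC and -1.47 for 2944 genes over 55%. With each library corrected for GC content, which moved the median of all tested genes to 0, Ctsl still fell (log2 fold change -1.84, adjusted p = 0.0155). Ctsd was then at -0.79 (adjusted p = 0.0739) and Ctsf at -0.37 (adjusted p = 0.169), and neither passed. Ctsz turned from -0.31 to 1.38 and passed as higher in cKO/AD (adjusted p = 0.0341). Ctsa turned to 0.83 (adjusted p = 0.0508), while Ctsc and Ctss turned to -0.15 and -0.23. Over all genes the correction left 781 higher and 470 lower, where the uncorrected counts gave 1728 higher and 2252 lower. Ratios of counts within a library do not depend on its scaling. Ctsl to Ctss, which have nearly the same GC content, stood at 0.105 and 0.130 in cKO/AD, 0.384 and 0.351 in WT/AD, 0.202 and 0.276 in cKO, and 0.193 and 0.185 in WT. This ratio was thus higher in WT/AD and lower in cKO/AD than in either group without the disease. Ctsl to Ctsb, a pair less alike in GC content, stood at 0.125 and 0.0984 in cKO/AD and 0.240 and 0.220 in WT/AD. It was 0.196 and 0.239 in cKO, and 0.172 and 0.170 in WT. By that ratio cKO/AD was again lowest, but WT/AD overlapped cKO.

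**Figure D3:**
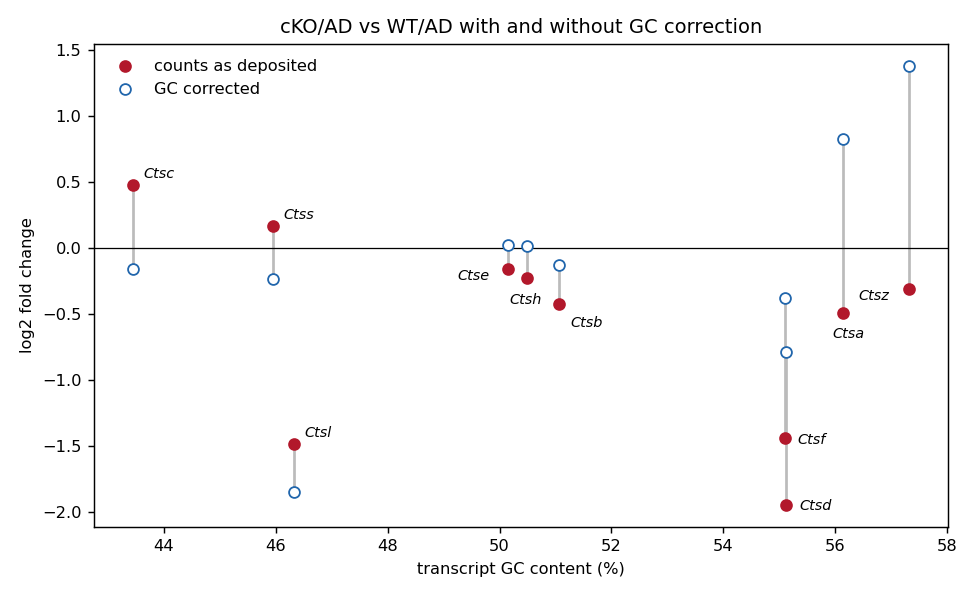
Points give the log2 fold change of cKO/AD over WT/AD for each cathepsin against its transcript GC content in percent, filled for the counts as deposited and open after the GC correction. Ctsl is at -1.49 and -1.84, Ctsd and Ctsf move towards 0, and Ctsz moves from -0.31 to 1.38.

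The effect of the disease was read in each genotype. In cKO/AD relative to cKO, 1 cathepsin rose (Ctse), where 0.0634% of all genes rose and 0.154% fell. Both cKO/AD libraries were above both cKO libraries for 6 members (Ctsb, Ctsc, Ctse, Ctsh, Ctss and Ctsz), as for 20.3% of all genes. They were below for Ctsf and Ctsl, as for 31.1%, and overlapped for Ctsa and Ctsd. The median log2 fold change was 0.45 over the members and -0.13 over all tested genes. In WT/AD relative to WT, again Ctse alone rose, where 0.0317% of all genes rose and 0.0136% fell. Both WT/AD libraries were above both WT libraries for 8 members, as for 26.5% of all genes, and below for Ctsc, as for 25.9%, with Ctss overlapping. The median was 0.45 over the members, and all tested genes had a median of 0. Among genes with a mean of at least 4 CPM, the median for WT/AD over WT was -0.28 under 45% GC and 0.44 over 55%. For cKO/AD over cKO it was 0.40 and -0.80. With the GC correction the member median was 0.34 for WT/AD over WT, with 7 above 0 and 3 below. It was 0.53 for cKO/AD over cKO, with 8 above 0 and 2 below. Ctse still passed in both comparisons. DESeq2 called 6 members in cKO/AD against cKO, where it called 14.8% of all genes, and 5 in WT/AD against WT, where it called 2.4%. Those 5 were Ctsb, Ctsd, Ctse, Ctsl and Ctsz, all higher in WT/AD. The Ctse call of WT/AD against WT was lost without either library of WT, WT/AD or cKO (adjusted p = 0.0615 to 0.855) and without TMM scaling (0.0656). That of cKO/AD against cKO was lost without either library of WT or WT/AD or cKO replicate 2 (0.059 to 0.168) and in a fit of the 4 libraries alone (0.291). In every one of those fits the log2 fold change was at least 3.05. Leaving out a cKO/AD library raised the counts, to 5 members in WT/AD against WT without either of them, where 5.22% and 4.85% of all genes were called. In cKO/AD against cKO the count was 6 without replicate 1, where 8.06% of all genes were called, and 4 without replicate 2, where 34.6% were.

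Deletion without the disease gave no called cathepsin. In cKO relative to WT all 10 log2 fold changes were below 0, from -1.04 for Ctse to -0.08 for Ctsl, with a median of -0.42 over the members and -0.02 over all tested genes. Both cKO libraries were below both WT libraries for 9 members, all but Ctsl, as for 26% of all genes, and above them for none, as against 23.3% of all genes. The test called 0 of the 22089 genes, the percentage being 0 in either direction, and 1596 had an unadjusted p under 0.05. Of the members, 5 had an unadjusted p under 0.05. DESeq2 and limma-voom called 0 members, where they called 1.21% and 0.0136% of all genes. Scaled by library size without TMM, 9 members were below 0, and Ctsl was at 0.07. Over the microglial markers the median was -0.52 in this comparison, and 0 of 8 were called. The median was -1.78 for markers of endothelium, -1.42 for mural cells, -0.93 for neutrophils, -0.88 for astrocytes and -0.71 for monocytes. It was 0.55 for B cells and dendritic cells, 0.15 for border macrophages, 0.12 for oligodendrocytes and 0.06 for neurons, with 0 called in each list. Endothelial markers summed to 186 and 187 CPM in cKO and 641 and 647 in WT, and mural markers to 314 and 275 CPM in cKO and 991 and 1012 in WT. The part of these differences in the cathepsin values was not tested.

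The interaction, the cKO/AD minus WT/AD difference less the cKO minus WT difference, passed for 0 members, where 0.00905% of all genes were called higher and 0.0181% lower. It was lowest for Ctsd (-1.66, SE 0.336, adjusted p = 0.064), Ctsl (-1.40, SE 0.256, adjusted p = 0.0573) and Ctsf (-1.05, SE 0.395, adjusted p = 0.178), and highest for Ctsc (0.94, SE 0.267, adjusted p = 0.106). With the GC correction Ctsl was at -1.73, Ctsd at -0.70, Ctsf at -0.19 and Ctsc at 0.40. The highest were then Ctsz at 1.56 and Ctsa at 1.16, and none passed. Of the 10, 5 had an unadjusted p under 0.05, as had 4846 of the 22089 genes. DESeq2 called 3 members and 12.4% of all genes, and limma-voom 2 members and 3.1%. Without cKO/AD replicate 1 edgeR called 3 members and 12.3% of all genes, and without cKO/AD replicate 2 it called 5 members and 31.8%. The comparisons share groups (cKO/AD, WT/AD, cKO and WT each enter several), so their fold changes are not independent of each other.

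**Figure D4:**
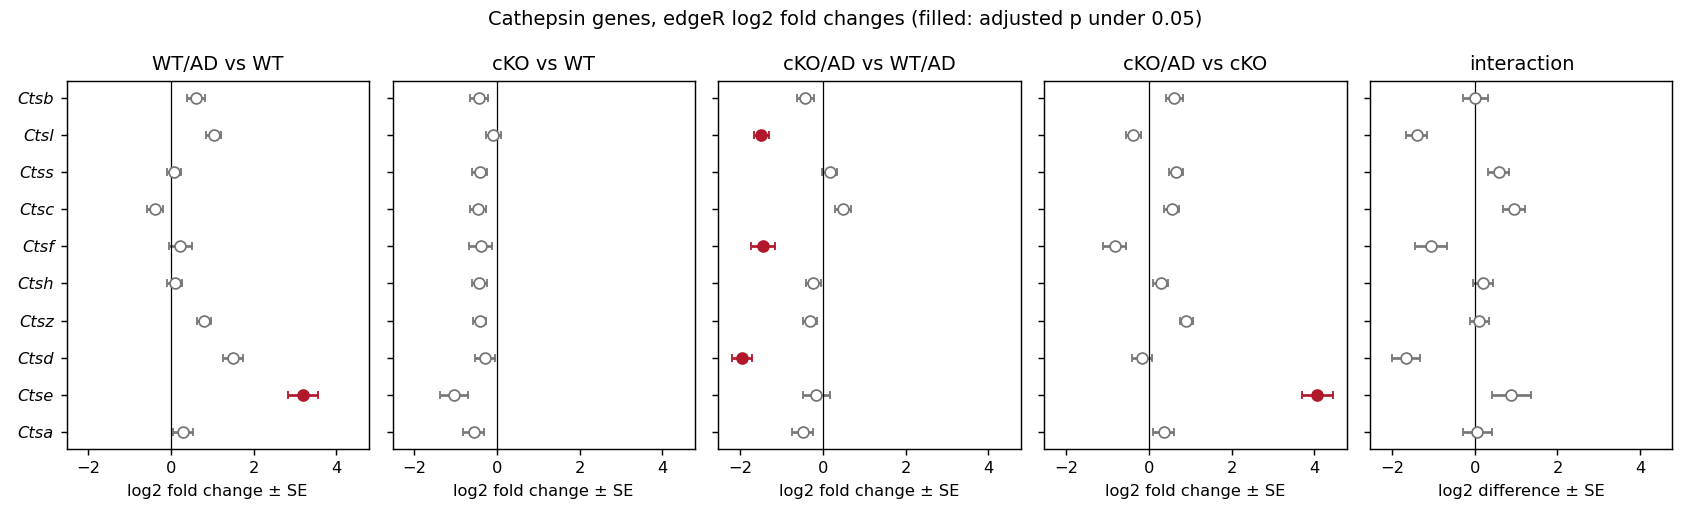
Each panel gives 1 comparison, with the edgeR log2 fold change and its SE for each cathepsin, filled where the adjusted p was under 0.05. The filled points are Ctse in the comparisons of WT/AD with WT and of cKO/AD with cKO, and Ctsl, Ctsf and Ctsd in that of cKO/AD with WT/AD.

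Microglial marker sums were lower in cKO/AD than in WT/AD, as given above, and 3 of the 8 markers fell (Csf1r, Cx3cr1 and Tmem119). Over all tested genes 10.2% fell and 7.82% rose in this comparison, to be set beside each list here. The median was -0.45 over the microglial list. With the GC correction Csf1r and Cx3cr1 still passed, Tmem119 did not, and the median was -0.20. Border macrophage markers, whose cells also express cathepsins, summed to 194 and 221 CPM in cKO/AD and 148 and 165 in WT/AD, and 0 of 6 were called. Monocyte markers summed to 84.9 and 82.3 CPM in cKO/AD and 49.0 and 61.4 in WT/AD, and 1 of 5 rose (Ms4a4c), a call lost with the GC correction, with which the median of the list moved to -0.63, against -0.05 without it. Neutrophil markers summed to 902 and 946 CPM in cKO/AD and 857 and 867 in WT/AD, against 1055 and 937 in cKO and 2076 and 1968 in WT, and 1 of 8 fell in cKO/AD relative to WT/AD (S100a9). Endothelial markers summed to 214 and 148 CPM in cKO/AD and 290 and 258 in WT/AD, and 2 of 6 fell (Ly6c1 and Cldn5, the second call lost with the GC correction). Mural markers summed to 101 and 343 CPM in cKO/AD and 351 and 402 in WT/AD, and 2 of 5 fell (Acta2 and Vtn, the second call lost with the GC correction). No defining marker of these 5 cell types was at 0 in both libraries of a group. B cell and dendritic cell markers summed to 17.6 and 39.5 CPM in cKO/AD and 38.6 and 42.8 in WT/AD, and 0 of 5 were called. Among them Clec9a was at 0 in both cKO/AD libraries. The part of any of these cell types in the cathepsin levels was not tested.

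Among the cathepsin inhibitors, 1 passed the test, Cst7, which encodes the endosomal and lysosomal cystatin F. It had 278 and 202 CPM in cKO/AD, 550.4 and 514 in WT/AD, 11.1 and 5.27 in cKO, and 3.61 and 3.68 in WT. It rose in WT/AD relative to WT (log2 fold change 7.19, SE 0.429, adjusted p = 0.00203) and in cKO/AD relative to cKO (4.87, SE 0.383, adjusted p = 0.0137), and was lower in cKO/AD than in WT/AD (-1.15, SE 0.326, adjusted p = 0.0463). The first call was lost without either WT library (adjusted p = 0.0928 and 0.113). The second was lost without either WT library or cKO replicate 2 (0.0512 to 0.0637) and in a fit of the 4 libraries alone (0.291). The third was lost with the GC correction (-0.94, adjusted p = 0.151). It was also lost without either library of WT or of WT/AD (adjusted p = 0.0879 to 0.207), in a fit of the 4 libraries alone (0.109) and with DESeq2's size factors (0.0581). None of the other inhibitors passed in any comparison (11 tested of 14 in the table). In cKO/AD against WT/AD the median of the list was -0.03, and 10.2% of all tested genes fell. Cst3, the secreted cystatin C, had 858 and 529 CPM in cKO/AD, 1379 and 1084 in WT/AD, 589 and 579.5 in cKO, and 796 and 775 in WT. Its groups with and without the deletion did not overlap in the disease, but the difference did not pass (log2 fold change -0.83, SE 0.254, adjusted p = 0.0587). With the GC correction it turned to 0.51 (adjusted p = 0.453). Cstb, a cytosolic stefin, had 41.7 and 23.7 CPM in cKO/AD, 34.7 and 35.6 in WT/AD, 11.3 and 11.8 in cKO, and 18 and 17.8 in WT. It was higher in each disease library than in any other, without passing (adjusted p = 0.0655 for cKO/AD against cKO).

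Genes that carry cathepsins to lysosomes or mature them were tested as a list of 15. In cKO/AD relative to WT/AD 4 fell and 1 rose, where 10.2% of all tested genes fell and 7.82% rose. The median was -0.84 over the list, -0.14 over all tested genes and, with the GC correction, -0.12 over the list. Without WT/AD replicate 1, as given above, 2 genes of the whole table passed in this comparison. Gga1, an adaptor of receptor sorting at the Golgi, had 25.8 and 32.1 CPM in cKO/AD and 175 and 151 in WT/AD (log2 fold change -2.49, SE 0.255, adjusted p = 0.00635). Gnptg, a subunit of the enzyme that builds the mannose 6-phosphate tag, had 13.9 and 25.0 CPM in cKO/AD and 73.9 and 67.1 in WT/AD (-1.86, SE 0.322, adjusted p = 0.0103). Grn encodes progranulin, which binds and aids the maturation of Ctsd protein, and had 247 and 588 CPM in cKO/AD and 1807 and 1609 in WT/AD (-2.03, SE 0.403, adjusted p = 0.0148). Lrp1, an endocytic receptor, fell likewise (-1.84, adjusted p = 0.0117), and Vps26a, a retromer subunit, rose (1.01, adjusted p = 0.032). The calls of Gnptg (-1.77, adjusted p = 0.0237) and Grn (-0.92, adjusted p = 0.04996) held with the GC correction, and those of the other 3 did not. Lgmn, the asparaginyl endopeptidase that cuts several cathepsins into chains, had 3314 and 4154 CPM in cKO/AD, 3008 and 3434 in WT/AD, 3240.2 and 2763 in cKO, and 4405 and 4636 in WT. It passed in no comparison. No gene of the list passed in another comparison.

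**Figure D5:**
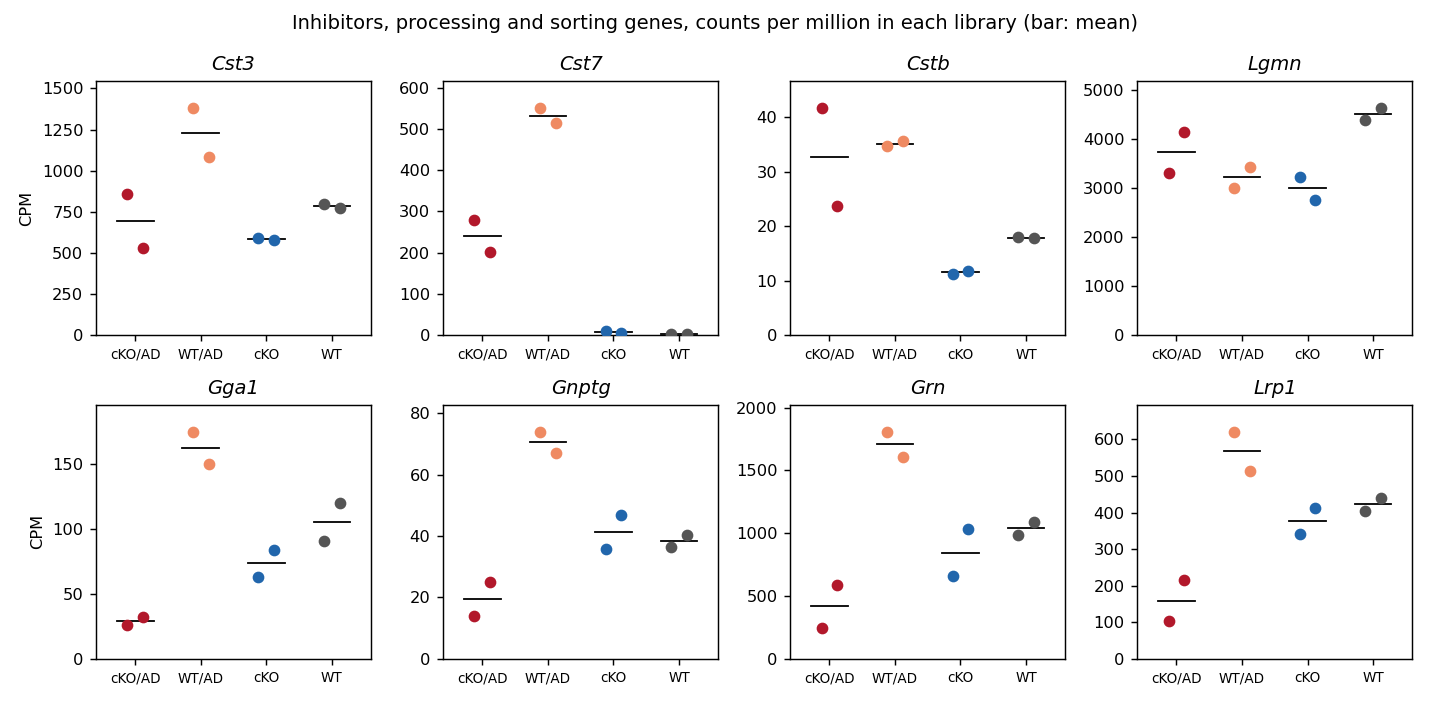
Panels give CPM per library, with a bar at the group mean, for the inhibitors Cst3, Cst7 and Cstb, the processing enzyme Lgmn and the sorting and maturation genes Gga1, Gnptg, Grn and Lrp1. Cst7 is at 202 CPM or more in the disease groups and 11.1 CPM or less in the others, and Gga1, Gnptg, Grn and Lrp1 are lowest in cKO/AD and highest in WT/AD.

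Of the Ctsa complex, 1 of 3 members fell in cKO/AD relative to WT/AD, with a median of -0.49 that turned to 0.25 with the GC correction. In this comparison, also used for the lists that follow, 10.2% of all tested genes fell and 7.82% rose. Neu1 had 27.8 and 54.8 CPM in cKO/AD and 168 and 163 in WT/AD (log2 fold change -2.0, SE 0.341, adjusted p = 0.00998), a call that held with the GC correction (-0.98, adjusted p = 0.037). Of 7 other lysosomal peptidases, the dipeptidase gene Cpq rose (1.39, adjusted p = 0.0437) and the dipeptidyl peptidase gene Dpp7 fell (-1.43, adjusted p = 0.00964), both without the GC correction only. Prcp of this list was at -0.60 (adjusted p = 0.0759) and passed as lower with the GC correction only (-0.81, adjusted p = 0.0497). The median of the list was -0.19, or 0.12 with the GC correction. Of 6 transcription factors of lysosomal and macrophage genes, 4 fell and 1 rose, where 10.2% and 7.82% of all tested genes did. The median of this list was -1.65, or -0.46 with the GC correction. Mitf had 42.6 and 46.4 CPM in cKO/AD and 9.93 and 9.82 in WT/AD (2.17, SE 0.291, adjusted p = 0.00689), and held with the GC correction (2.00, adjusted p = 0.0223). Spi1 (-1.57, adjusted p = 0.0124), Irf8 (-1.89, adjusted p = 0.0173), Tfeb (-4.22, adjusted p = 0.0312) and Tfe3 (-1.72, adjusted p = 0.0389) fell, and none of the 4 passed with it. Tfeb had 0.284 and 7.63 CPM in cKO/AD and 84.2 and 65.6 in WT/AD. No member of these 3 lists passed in another comparison.

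The genes most like each called cathepsin were sought among 12979 others by the root mean square difference of centred log2 CPM over the 8 libraries, which is 0 for an identical pattern. Nearest to Ctsd were Cebpa (0.184), Tyrobp (0.186) and Trem2 (0.189), where the median candidate was at 0.927. Ctsl was nearest to Tpi1 (0.0952), Btf3 (0.108) and Plk5 (0.109), with a median of 0.744. Next to Ctsf stood Itm2c (0.0761), Bin1 (0.0842) and Colgalt1 (0.0848), with a median of 0.753. Ctse had no neighbour as close, with Ccl3 at 0.401, Cd200r4 at 0.528 and Clec7a at 0.550, and a median of 1.95. Within the family the closest pairs were Ctsa with Ctsb (0.177), Ctsh with Ctss (0.181) and Ctsb with Ctsz (0.190), and the farthest was Ctse with Ctsf (2.07). All of these patterns share the same libraries, depth and scaling, and none was corrected for GC content.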

How the data were processed

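The deposited table holds raw counts of reads by gene, as whole numbers, for 8 libraries. Per the labels, RNA was taken with Trizol and made into TruSeq libraries. The genome build was mm9, per the submitters' processing notes. How reads were aligned and counted, and whether by strand, is not given in the sources used here. Exon lengths, transcript GC content (99.87% of tested genes) and overlaps came from GENCODE M21, of a later build, so its coordinates are not printed.

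The analysis used edgeR 4.0.16 (R 4.3.3) with filterByExpr by group, TMM factors (0.873 to 1.11), 1 group means model over the 8 libraries (4 residual degrees of freedom), the two-sided quasi-likelihood test and Benjamini-Hochberg adjustment over the 22089 tested genes, with a threshold of 0.05. Unless another tool is named, each adjusted p is from this test, and SE is derived from its F statistic. CPM is per TMM-scaled library size, and per-length levels are CPM per kb of exon. The script was tested on simulated data. The alternatives were DESeq2 1.42.0, voom in limma 3.58.1, DESeq2 size factors, no TMM, no filter, a stricter filter (at least 5 CPM in 2 libraries), the 2 groups alone, a replicate block, a loess GC correction (span 0.4) without and with that block, and leaving out each library.

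The members and lists were chosen with earlier results of these data known. All 10 cathepsins are named. From each list, up to 4 members past the threshold of a comparison are named, smallest adjusted p first, with Cst3, Cst7, Cstb and Lgmn always. Lists with 4 falls and 1 rise past the threshold are named in full, which adds Vps26a and Tfe3, chosen after their values were seen. Prcp, which passed with the GC correction only, was likewise added after its values were seen. For likeness, candidates had a mean of at least 5 CPM and the 3 nearest are named.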

Additional observations from a re-analysis of the deposited data

How the results depend on the processing

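Of 890 values of the 10 cathepsins over 5 comparisons and their alternatives, 774 kept direction and side of the threshold, 59 passed where the main test did not, 25 no longer passed and 32 changed sign. In cKO/AD against WT/AD 3 cathepsins were called, 4 with DESeq2, limma-voom or the stricter filter (Ctsc, higher, being the fourth) and 0 in a fit of the 2 groups only. Of all genes 18%, 28.9%, 21.8%, 31.9% and 0% were called, in the same order of settings. In WT/AD against WT 1 was called, 5 with DESeq2, 3 without a filter, 5 in the 2 groups only, and 0 without TMM or with the replicate block. The shares of all genes were 0.0453%, 2.4%, 0.799%, 6.7%, 0.0272% and 0.0136%, in that order. In cKO/AD against cKO 1 was called, 6 with DESeq2, 2 with limma-voom, 3 without a filter, 2 with the stricter filter and 0 in the 2 groups only. The shares of all genes were 0.217%, 14.8%, 0.543%, 8.79%, 4.2% and 0%, in that order. For the interaction 0 were called, 3 with DESeq2, 2 with limma-voom, 3 without a filter and 2 with the stricter filter. The shares of all genes were 0.0272%, 12.4%, 3.1%, 7.68% and 4.43%, in that order. In cKO against WT every setting called 0 members. Of all genes 0% were called in the main fit, 1.21% with DESeq2 and 0.0136% with limma-voom. The share was 0.408% without a filter, 0.0212% with the stricter filter and 0.598% in the 2 groups only. These settings thus moved the share of all genes called as well as the count of members. Leaving out 1 library, which leaves 1 in a group, also moved the counts in every comparison but cKO against WT. The share of all genes called moved as well.

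Sign changes with the GC correction (value with the replicate block added in brackets) were, in cKO/AD against WT/AD, Ctsa 0.83 (0.83), Ctsc -0.15 (-0.16), Ctse 0.0246 (0.0217), Ctsh 0.0175 (0.0049), Ctss -0.23 (-0.23) and Ctsz 1.38 (1.35). In WT/AD against WT they were Ctsa -0.026 (-0.0266) and Ctsf -0.0251 (-0.0247), and in cKO/AD against cKO Ctsd 0.53 (0.51). Without TMM, Ctsl turned to 0.0671 in cKO against WT, and the interaction turned to -0.14 for Ctsa, -0.19 for Ctsb, -0.032 for Ctsh and -0.12 for Ctsz. Leaving out 1 library turned Ctsl in cKO against WT (-0.22 to 0.0624), Ctsa (-0.0492 to 0.67) and Ctsd (-0.34 to 0.0281) in cKO/AD against cKO, and Ctsa (-0.34 to 0.37) and Ctsb (-0.27 to 0.23) in the interaction. The causes were not tested.

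Deviations of same-numbered libraries correlated at -0.033 to 0.061 between groups over all tested genes. Such values cannot tell whether libraries of the same number were prepared together. With the replicate block, Ctse in WT/AD against WT was at 3.19 (adjusted p = 0.116). With 2 libraries a group and 4 residual degrees of freedom, moderate differences could go uncalled.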

Other observations

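Of 13 further cathepsin genes, 3 had enough counts to be tested. Ctso, a cysteine protease gene, had 214 and 226 CPM in cKO/AD, 118 and 132 in WT/AD, 179 and 182 in cKO, and 231 and 229 in WT, so that WT/AD was lowest and the groups with the disease did not overlap. It was higher in cKO/AD than in WT/AD (log2 fold change 0.81, SE 0.166, adjusted p = 0.0163), a call lost with the GC correction (0.16, adjusted p = 0.595). Ctsk, the cathepsin of osteoclasts, was at 1.36 to 4.17 CPM and Ctsw, a gene of cytotoxic lymphocytes, at 0.618 to 6.64 CPM over the 8 libraries, and neither passed in any comparison. The neutrophil protease gene Ctsg had 0 and 4 counts in cKO/AD, 0 and 1 in WT/AD, 0 and 0 in cKO, and 7 and 0 in WT.

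The count ratio of Ctse to Ctsd, the aspartic pair, was 0.36 and 0.336 in cKO/AD, 0.0823 and 0.126 in WT/AD, 0.0265 and 0.0121 in cKO, and 0.0281 and 0.0336 in WT. It was highest in both cKO/AD libraries. The ratio of the inhibitor Cst7 to Ctsl was 0.742 and 0.485 in cKO/AD and 0.497 and 0.463 in WT/AD, with overlap, against 0.0244 and 0.00932 in cKO and 0.00669 and 0.00677 in WT. That of Cst7 to Ctsc was 0.188 and 0.118 in cKO/AD and 0.540 and 0.407 in WT/AD, without overlap. These ratios were not tested or corrected for GC content. That content was 50.2% for Ctse and 55.1% for Ctsd, and 50.1% for Cst7, 46.3% for Ctsl and 43.4% for Ctsc.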
